A study of Mus musculus with 4 samples.

Results

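Tetraspanins are small membrane proteins that cross the membrane 4 times and gather integrins, immunoglobulin superfamily proteins and signalling molecules into membrane domains. The family members examined here were 9 genes that T cells are known to use: Cd81, Cd9, Cd37, Cd53, Cd63, Cd82, Cd151, Tspan31 and Tspan32. They were chosen by the difference of Cd81 between Foxp3-deleted and wild-type cells in these same arrays, where Cd81 was among the lowest genes, to see how the rest of its family read in that comparison. All probe sets whose platform gene symbol was exactly one of these names were taken. This gave 19 of the 45101 probe sets, for 8 of the 9 genes and of the 18194 genes with a probe set of their own. No probe set carried the symbol Cd63 in the annotation used, and Cd63 was not analysed here. Because the comparison itself led to the choice, the differences of these genes are given as a description without a test.

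Each array held the RNA of 1 sample of mouse T cells, isolated as CD4+ YFP+ Ly5.2+. Foxp3 is the transcription factor that defines regulatory T (Treg) cells, the suppressive CD4+ lineage. In the deleted group (2 arrays) the Foxp3 gene was flanked by loxP sites, and in the wild-type group (2 arrays) it was not altered. Cells of both groups had been treated with the Cre construct HR-MMPCreGFP and were collected 6 weeks after adoptive transfer. Both groups were YFP+, which marks exposure to Cre and not deletion of Foxp3. No label states ages, sexes, host animals or whether replicates came from separate animals, so the spread between arrays may be technical. The values are GCRMA intensities, mostly given below on the log2 scale, and a log2 value under 4 is called near the floor. Errors are SDs over n = 2 arrays or the SE of the fitted difference, and the number of arrays limits the precision throughout.

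Within the family, CD81 and CD9 are close relatives that associate with partner proteins such as EWI-2 and integrins, and CD81 is known as a costimulator of T cells. CD37 and CD53 are largely restricted to leukocytes. CD82 and CD151 bind integrins and are known for effects on cell motility, CD63 resides mainly in lysosomes and granules, and Tspan32 is a haematopoietic member that restrains T cell proliferation.

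Promoter windows were read for 3 of the genes: Cd81, the lowest in deleted cells; Tspan32, its neighbour on the chromosome and next lowest; and Cd9, which read higher. Each window runs 5′ to 3′ on the gene's strand from 250 bases before to 50 bases after the start (RefSeq, GRCm38.p6), at chr7:143052500-143052799 (plus strand) for Cd81, chr7:143004796-143005095 (plus strand) for Tspan32 and chr6:125494711-125495010 (minus strand) for Cd9. Capitals mark the GC box GGGCGG, the TATA motif TATAAA and the forkhead core TGTTT, on either strand.
Cd81: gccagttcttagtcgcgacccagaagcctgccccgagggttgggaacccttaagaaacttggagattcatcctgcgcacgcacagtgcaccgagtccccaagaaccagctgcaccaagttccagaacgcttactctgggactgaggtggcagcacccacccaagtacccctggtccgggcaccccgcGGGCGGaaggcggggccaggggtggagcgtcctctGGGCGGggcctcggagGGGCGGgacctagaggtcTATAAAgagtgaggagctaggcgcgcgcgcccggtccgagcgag
Tspan32: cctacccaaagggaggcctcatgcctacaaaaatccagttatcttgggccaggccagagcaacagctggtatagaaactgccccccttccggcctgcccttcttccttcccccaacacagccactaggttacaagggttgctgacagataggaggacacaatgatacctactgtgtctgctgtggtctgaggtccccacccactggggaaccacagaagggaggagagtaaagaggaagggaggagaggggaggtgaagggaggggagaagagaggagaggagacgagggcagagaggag
Cd9: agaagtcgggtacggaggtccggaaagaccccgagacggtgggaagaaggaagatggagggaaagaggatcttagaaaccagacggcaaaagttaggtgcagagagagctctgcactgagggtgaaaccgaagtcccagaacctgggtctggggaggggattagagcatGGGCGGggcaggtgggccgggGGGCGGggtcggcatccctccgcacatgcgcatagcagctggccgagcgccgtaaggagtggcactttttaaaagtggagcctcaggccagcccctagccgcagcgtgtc
The Cd81 window held 3 GC boxes and 1 TATA motif, the Cd9 window 2 GC boxes, and the Tspan32 window none of these motifs. The TATA motif of Cd81 lay at position 6 after the start used here, and not before it. G and C made up 65.7% of the Cd81 window, 56.7% of the Tspan32 window and 61.3% of the Cd9 window. The promoter windows set beside them below were not matched for this. The forkhead core was in none of the 3 windows, against 50.5% of 32851 promoter windows of the same length in the table. It was present in 2 of the 13 windows listed for all 9 genes, 1 each of Cd53 and Cd82, and the full forkhead motif TGTTTAC, which contains the core, was in 0 of them, against 3.65% of all windows. The GC box was found in 35.7% of all windows and the TATA motif in 13.6%. A match is a run of letters and not a measured binding site.

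Foxp3 itself read at log2 8.77 and 8.75 under deletion against 11.40 and 11.23 in wild-type cells, a difference of -2.55 (SE 0.26, adjusted p = 0.115 in limma) that corresponds to 17.0% of the wild-type signal. The T cell label held, since Cd3d, Cd3e, Cd3g, Cd4 and Cd2 were all well above the floor on every array and Cd8a and Cd8b1 were below log2 4 on every array. The brightest probe sets of 4 Treg markers (Foxp3, Il2ra, Ctla4 and Ikzf2) summed to intensities of 2182 and 4284 in deleted and 16291 and 17050 in wild-type cells. Over the 16281 probe sets whose log2 intensity averaged 4 or more (the filter), limma called 0 at an adjusted p of 0.05, lower or higher (0% each). At an unadjusted p under 0.05 it counted 631 lower and 876 higher. With only 2 arrays against 2, an exact permutation test of a single probe set cannot go below p = 0.333. Members were counted below mainly by a second, descriptive rule, at least 2-fold apart with no overlap between the groups. Of all probe sets tested 4.58% met it as lower in deleted cells and 6.67% as higher. The further tetraspanins and the partners were also counted by limma p-values.

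Cd81 read very low in deleted cells and was bright in wild-type cells. Its 1 probe set had intensities of 31.6 and 29.3 under deletion against 799.9 and 608.0 in wild-type cells, which are log2 values of 4.98 and 4.87 against 9.64 and 9.25. The groups lay 4.27 apart on the log2 scale at their closest arrays, while the arrays within a group differed by at most 0.40. The mean was 4.93 ± 0.07 in deleted and 9.45 ± 0.28 in wild-type cells (log2, SD, n = 2). The difference was -4.52 (SE 0.36), which leaves 4.36% of the wild-type signal. Of the 16281 probe sets, Cd81 had the 7th lowest difference. In bulk RNA, fewer cells with the transcript and less transcript per cell cannot be told apart.

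The brightest probe sets of 6 measured B cell markers, cells in which CD81 is also abundant, summed to intensities of 55.0 and 66.9 in deleted and 137.8 and 128.2 in wild-type cells. Of these markers Cd79a, Pax5, Cr2 and Blk were near the floor on all 4 arrays. Cd79b, a chain of the B cell receptor complex, made up the largest part of the wild-type sums, with log2 4.04 and 4.94 under deletion against 6.58 and 6.49 in wild-type cells. The remaining marker, Ms4a1, read log2 3.64 and 3.55 under deletion against 4.12 and 3.78 in wild-type cells, and so lay close to the floor. The part of such cells in the Cd81 result was not tested.

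**Figure D1:**
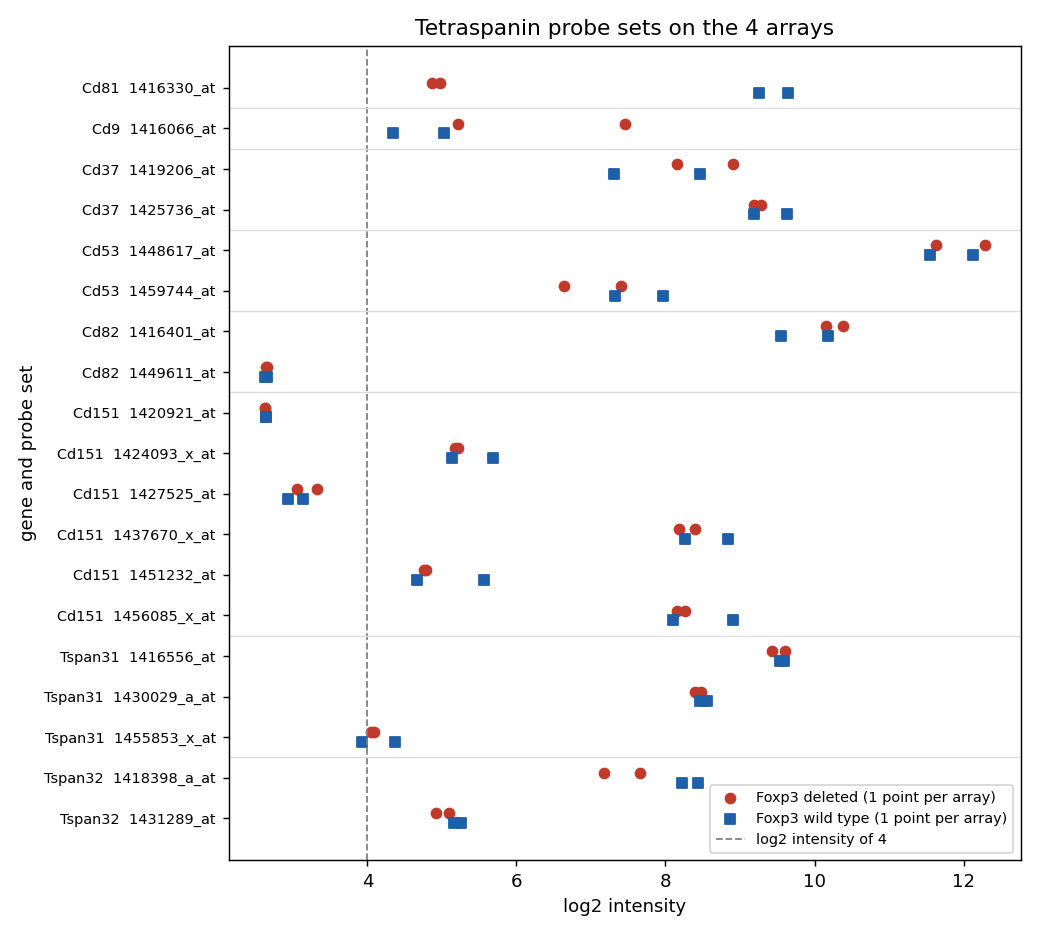
Log2 intensity (x axis) of the 19 tetraspanin probe sets (y axis), 1 point per array, circles for Foxp3-deleted and squares for Foxp3 wild-type cells, with a dashed line at log2 4. Cd81 shows a wide gap between the groups, Cd9 has 1 high deleted array, and most other probe sets overlap.

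None of the other measured members was lower to a like extent. The 17 probe sets of Cd37, Cd53, Cd82, Cd151, Tspan31 and Tspan32 lay between -0.91 and 0.64 on the log2 scale, and 14 of them overlapped between the groups. Of the 16 member probe sets above the filter, 1 was at least 2-fold lower without overlap (Cd81, background 4.58%) and 1 at least 2-fold higher (Cd9, background 6.67%). Without regard to size, 3 were lower without overlap, where 21.1% of all probe sets were, and 1 was higher, where 18.9% were. The direction of the mean was lower for 12 and higher for 4, against 8056 lower and 8225 higher among all probe sets. Of the 12, 4 were probe sets of Cd151 and 3 of Tspan31, so these are counts of probe sets and not of genes. The shares carry no test, since the comparison had already been used to pick the genes.

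Tspan32 came nearest to Cd81. Its brighter probe set (1418398_a_at) read log2 7.17 and 7.66 under deletion against 8.22 and 8.44 in wild-type cells. Both deleted arrays were below both wild-type arrays, by 0.56 at the closest. The difference was -0.91 (SE 0.37), which left 53.2% of the wild-type signal. It was -1.16 without deleted replicate 2 and -1.02 without wild-type replicate 1, and so past 2-fold there. The dimmer Tspan32 probe set (1431289_at), with log2 4.92 and 5.10 against 5.16 and 5.26, differed by -0.20 (SE 0.32). The pair of probe sets thus had the same sign and unequal size.

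Cd9, the close relative of Cd81, differed in the opposite direction. Its 1 probe set read log2 7.46 and 5.22 under deletion against 5.03 and 4.34 in wild-type cells, or intensities of 176.3 and 37.2 against 32.6 and 20.3. Deleted replicate 1 stood far above the other 3 arrays, and deleted replicate 2 lay 0.19 above the higher wild-type array. The difference was 1.65 (SE 0.81) with all arrays, 0.53 without deleted replicate 1 and 2.78 without deleted replicate 2.

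Several markers of other cells were also high on deleted replicate 1. The brightest probe sets of 8 myeloid and dendritic markers summed to an intensity of 1841 on deleted replicate 1, 618.2 on deleted replicate 2 and 638.5 and 516.2 on the wild-type arrays. Csf1r was the largest part of the sum on every array, with intensities of 923.5 and 486.8 under deletion against 533.2 and 314.2 in wild-type cells, and its groups overlapped. Lyz2, the lysozyme of phagocytes, read log2 9.69 on deleted replicate 1 against 6.30, 5.65 and 7.24 on the others. Fcgr3 and Cd68 were above log2 4 on deleted replicate 1 only, at 5.01 and 4.34. Adgre1 was even, between log2 4.32 and 4.44, and Itgam, Cd14 and Itgax were near the floor on all 4 arrays. Platelets, which carry much CD9, gave a marker sum of 55.9 on deleted replicate 1 and between 26.3 and 27.3 on the others, with Pf4 at log2 5.10 against 2.99, 3.06 and 3.09. The other 4 platelet markers, Ppbp, Itga2b, Gp9 and Gp1bb, were near the floor on every array. Natural killer markers summed to 194.8 on deleted replicate 1, 50.5 on replicate 2 and 93.8 and 55.7 on the wild-type arrays, nearly all from Klra8, with Ncr1 near the floor. Erythroid markers summed to between 19.1 and 22.5. The part of such cells in the Cd9 reading was not tested.

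**Figure D2:**
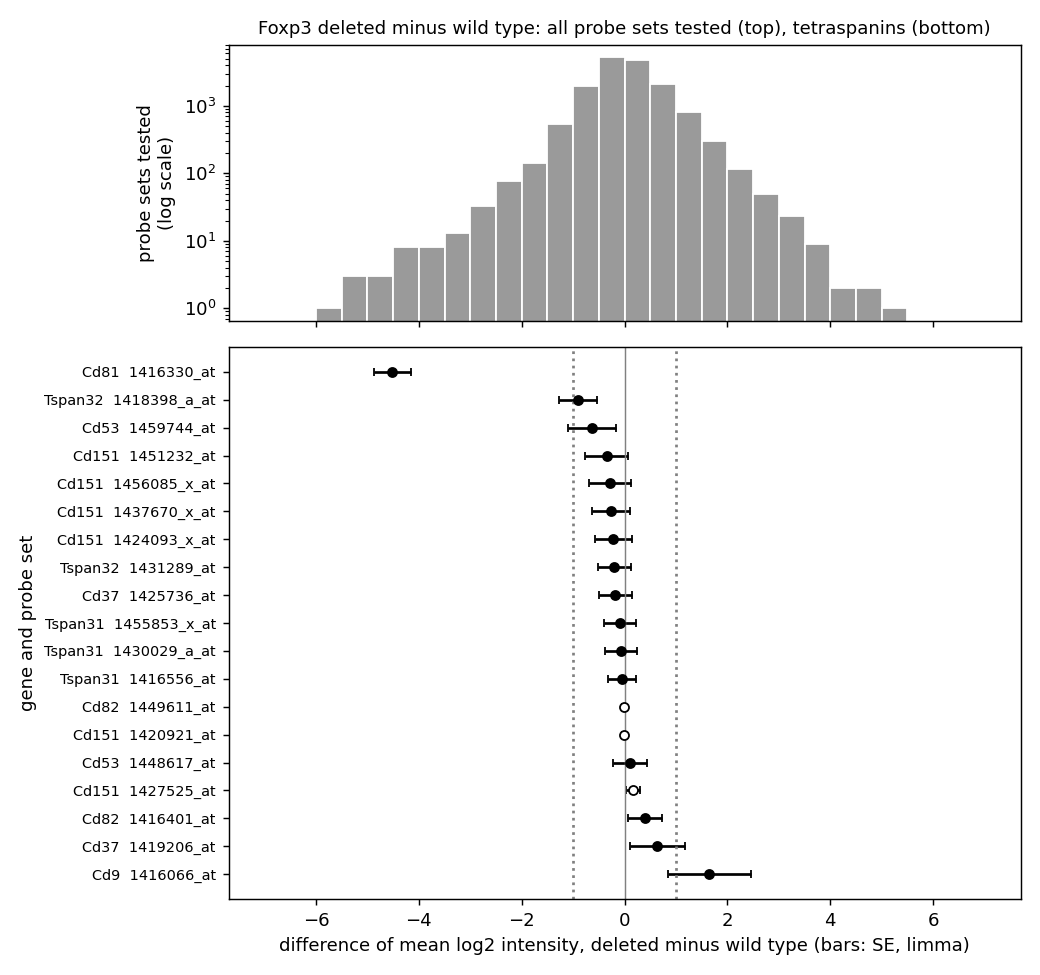
Difference of mean log2 intensity, deleted minus wild type (x axis), for all 16281 probe sets tested as counts on a log scale (top) and for the 19 tetraspanin probe sets with SE bars (bottom), open circles for the 3 below the filter and dotted lines at 2-fold. Cd81 lies at -4.52 in the far lower tail, Cd9 at 1.65, and the remaining probe sets between -0.91 and 0.64.

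The leukocyte-restricted pair Cd37 and Cd53 had probe sets of opposite sign. For Cd37, 1425736_at read log2 9.28 and 9.19 under deletion against 9.19 and 9.63 in wild-type cells, a difference of -0.18 (SE 0.32). Its other probe set, 1419206_at, read 8.16 and 8.90 against 8.46 and 7.31, a difference of 0.64 (SE 0.54). The groups overlapped on both, and the second was 1.22 without wild-type replicate 1 and 0.07 without wild-type replicate 2, and 1.02 and 0.27 without deleted replicates 1 and 2. For Cd53, 1448617_at read log2 12.28 and 11.63 against 11.55 and 12.13, a difference of 0.11 (SE 0.33). Its dimmer probe set 1459744_at read 7.40 and 6.64 against 7.32 and 7.97, a difference of -0.63 (SE 0.46) that was -1.0 when deleted replicate 1 was left out and -0.25 when deleted replicate 2 was. The sign of 1448617_at turned without deleted replicate 1 or wild-type replicate 1, and that of 1425736_at without wild-type replicate 2. Neither gene had a direction shared by its probe sets.

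Among the integrin-associated members, Cd82 read log2 10.15 and 10.38 under deletion against 10.18 and 9.55 in wild-type cells, with overlapping groups and a difference of 0.40 (SE 0.33) that was 0.09 without wild-type replicate 2 and 0.71 without wild-type replicate 1. Its other probe set was near the floor, between 2.63 and 2.66 on all arrays, and gave no measure of a difference. Cd151 had 6 probe sets, of which 4 were above the filter, with differences from -0.35 to -0.22. On the brightest, 1437670_x_at, the values were log2 8.18 and 8.39 against 8.84 and 8.26. In each of these 4 probe sets wild-type replicate 1 was the highest array and the groups overlapped. Without that array the 4 differences were between 0.03 and 0.11, so that the sign for Cd151 rested on 1 wild-type array. The remaining 2 were near the floor.

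Tspan31, a broadly expressed member first found as an amplified gene in sarcomas, had the smallest differences. Its brightest probe set (1416556_at) read log2 9.60 and 9.43 under deletion against 9.59 and 9.54 in wild-type cells, a difference of -0.05 (SE 0.28). The other probe sets differed by -0.07 and -0.08. All 3 overlapped between the groups.

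The neighbourhood of Cd81 on the chromosome was read from the order of genes in the same gene table. The 4 nearest genes on each side with a probe set of their own were Th, Ascl2, Tspan32 and R74862 on one side and Tssc4, Trpm5, Kcnq1 and Kcnq1ot1 on the other, in a region known for imprinted genes. R74862, a long non-coding RNA gene whose span overlaps that of Cd81, was near the floor on all 4 arrays (log2 2.35 to 2.4), as were all probe sets of Th, Ascl2, Trpm5 and Kcnq1. Tssc4, directly beyond Cd81, read log2 7.06 and 6.99 under deletion against 7.07 and 7.76 in wild-type cells, a difference of -0.38 (SE 0.40). Kcnq1ot1, a long non-coding RNA, had 3 of its 6 probe sets above the filter, with differences of -0.99, 0.40 and 0.01. Cd81 stood at -4.52 between neighbours whose probe sets all lay between -0.99 and 0.53. Only 6 of the 18 neighbour probe sets were above the filter, and those near the floor could not show a fall. Of those 6, both Tspan32 probe sets, Tssc4 and the Kcnq1ot1 probe set at -0.99 were lower without overlap, against 21.1% of all probe sets tested. The groups barely separated for Tssc4 (7.06 against 7.07 at the closest arrays) and for the dimmer Tspan32 probe set (0.06 apart).

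**Figure D3:**
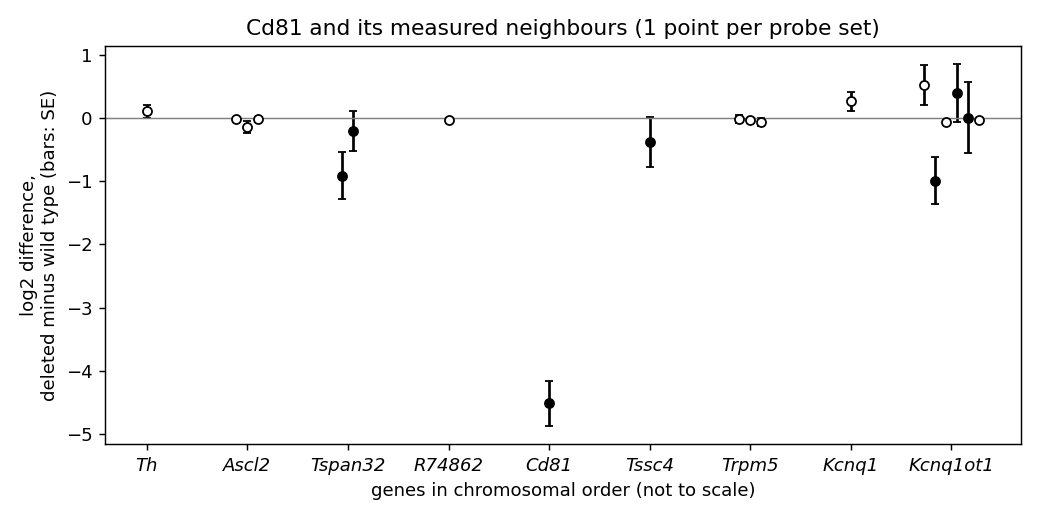
Difference in log2 intensity, deleted minus wild type, with SE bars (y axis), for Cd81 and the 4 nearest measured genes on each side in chromosomal order (x axis, not to scale), 1 point per probe set, filled where the mean log2 intensity was at least 4. Cd81 lies at -4.52 and every neighbour between -0.99 and 0.53.

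The rest of the tetraspanin family was mostly dim in these cells. Of 22 further family genes 21 had a probe set, and 37 of their 44 probe sets were below the filter. This list was also made with earlier results of these data known, so its p-values and counts are a description. Of the 7 tested, limma called 0 lower and 0 higher at an adjusted p of 0.05. At an unadjusted p under 0.05 it counted 0 lower and 1 higher, against 631 lower and 876 higher of all 16281. Their median difference was 0.12, against 0.01 over all probe sets tested. That 1 was Tspan14, which belongs to the subfamily that escorts the protease ADAM10 to the surface, with log2 8.01 and 7.82 under deletion against 4.91 and 6.95 in wild-type cells. Both deleted arrays were higher, but the wild-type arrays were 2.05 apart. The difference of 1.99 (SE 0.73, adjusted p = 0.517 in limma) was 0.96 without wild-type replicate 1 and 3.01 without wild-type replicate 2. Tspan13 read log2 11.81 and 12.07 against 11.52 and 11.83, a difference of 0.27 (SE 0.23, adjusted p = 0.768 in limma), and its other probe set differed by -0.06. Rom1, a tetraspanin of photoreceptors, differed by 0.49 (SE 0.46), which vanished without wild-type replicate 1 and was 0.99 without wild-type replicate 2, and Tspan5 by -0.19 (SE 0.31), both close to the floor. The other Tspan5 probe set (1431530_a_at) lay below the filter and was higher without overlap, with log2 3.70 and 3.64 against 2.98 and 2.93. Tspan17 (1455642_a_at), named after its values were seen, also lay below the filter, with log2 3.0 and 3.03 against 4.43 and 4.09.

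Proteins that tetraspanins are known to bind or to traffic differed in both directions. A probe set was found for 32 listed partner genes, and 45 of their 78 probe sets, from 28 genes, were above the filter. The partner list too was made with earlier results of these data known, and its p-values and counts are a description. In limma 0 were called in either direction at an adjusted p of 0.05. At an unadjusted p under 0.05 2 were lower and 7 higher, 3 of the latter being probe sets of Itga4. Among all 16281 probe sets tested 631 were lower and 876 higher by that measure. The median difference of the partners was 0.23 against 0.01 over all probe sets tested. By the descriptive rule 2 were at least 2-fold lower without overlap (Epcam and Icam1, background 4.58%) and 6 at least 2-fold higher (3 of Itga4 and 1 each of Ifitm1, Cd4 and Pdcd6ip, background 6.67%). The lower count was no more than that background. The last of these, which encodes the exosome protein ALIX and was named after its values were seen, had 2 more probe sets above the filter, at -0.47 and 0.51.

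Epcam, an epithelial adhesion molecule that joins tetraspanin complexes with claudins, had a difference close in size to that of Cd81 on 1 of 2 probe sets. Its probe set 1416579_a_at read log2 2.31 and 2.29 under deletion against 7.12 and 6.77 in wild-type cells, a difference of -4.64 (SE 0.32, adjusted p = 0.115 in limma) that was -2.94 once values below log2 4 were raised to 4 and -2.73 with a pseudocount of 16. The other Epcam probe set above the filter, 1447899_x_at, read 4.78 and 4.46 against 4.82 and 4.60, so the probe sets of this gene disagreed. Icam1, an adhesion ligand for the integrin LFA-1 and named after its values were seen, read log2 8.77 and 9.14 against 10.66 and 10.24, a difference of -1.49 (SE 0.32, adjusted p = 0.305 in limma).

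Ifitm1, an interferon-induced membrane protein that binds CD81, differed the other way. It read log2 11.04 and 9.24 under deletion against 5.64 and 4.96 in wild-type cells, a difference of 4.84 (SE 0.69, adjusted p = 0.164 in limma), and both deleted arrays were far above both wild-type arrays although they were 1.80 apart. Itga4, the alpha-4 integrin chain, which binds CD81 and CD82 complexes, was higher on all 3 probe sets above the filter, by 3.32 (SE 0.56, adjusted p = 0.200 in limma) on 1456498_at, with log2 9.17 and 10.50 against 6.21 and 6.82, and by 1.52 and 1.09 on the others. Cd4, whose product associates with CD81 and CD82, read log2 9.03 and 9.63 against 8.38 and 7.15 and was likewise named after its values were seen; the difference of 1.56 (SE 0.53, adjusted p = 0.480 in limma) was 0.95 without wild-type replicate 2. Adam17, a sheddase that associates with CD9, had probe sets at 1.82 (SE 1.16) and 0.39 (SE 0.36), the first with overlapping groups. The first was 0.38 without wild-type replicate 1 and 3.25 without wild-type replicate 2, and the second was 0.21 and 0.57. Igsf8, which encodes the CD81 and CD9 partner EWI-2 and was also chosen after its values were seen, read log2 6.59 and 7.03 against 6.56 and 6.46, a difference of 0.30 (SE 0.37, adjusted p = 0.840 in limma).

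**Figure D4:**
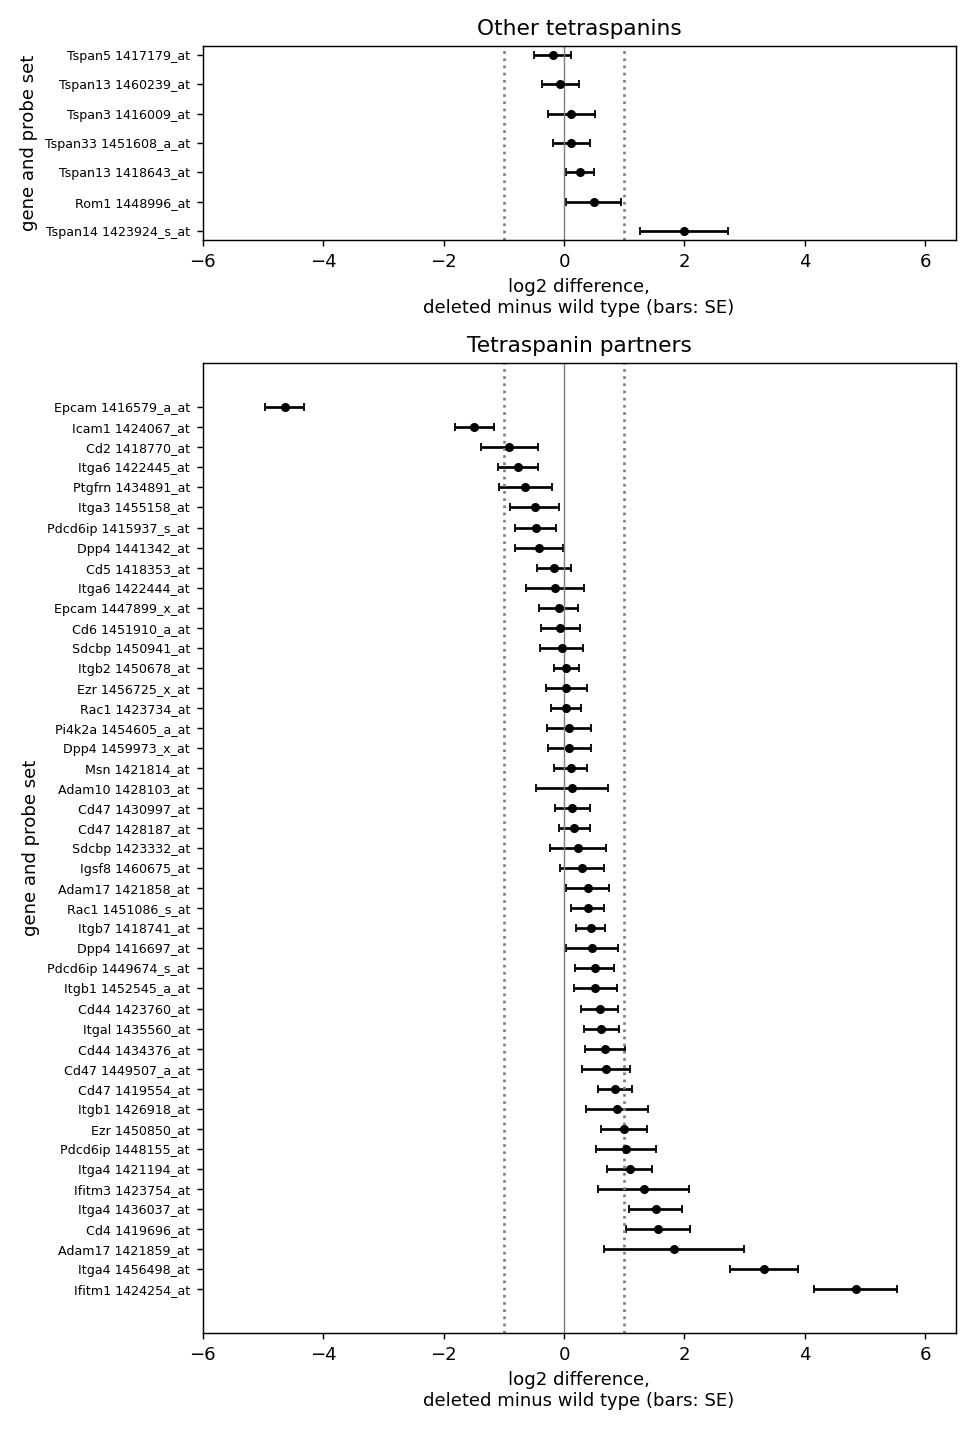
Difference in log2 intensity, deleted minus wild type, with SE bars (x axis), for every probe set above the filter of the other tetraspanins (top, 7 probe sets) and of tetraspanin partners (bottom, 45 probe sets), dotted lines at 2-fold. Tspan14 is the highest of the family at 1.99, and the partners run from Epcam at -4.64 to Ifitm1 at 4.84.

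The genes whose values over the 4 arrays were most like those of Cd81 were found by the Euclidean distance between log2 profiles centred on their own means, among all probe sets above the filter with 1 gene symbol. The 5 nearest were Epcam (distance 0.14), Cd83, a marker of activated lymphocytes and dendritic cells (0.45), Dscam, a neuronal cell adhesion gene (0.61), Neb, a muscle protein gene (0.69), and Tnfrsf9, the costimulatory receptor 4-1BB (0.69). Over 4 arrays in 2 groups this mainly lists genes with a difference of the same size, here from -4.64 to -3.95. No tetraspanin could be among them, since none above the filter other than Cd81 lay lower than -0.91. Dscam had 1 further probe set above the filter, at -1.84, and Tnfrsf9 1 at -3.75. In deleted cells the means of Epcam, Dscam and Neb lay under the log2 4 line, at 2.3, 2.34 and 3.06, whereas that of Cd81 was above it at 4.93.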

How the data were processed

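Per the submitters' processing notes, the authors made the deposited intensities with GCRMA 1.1.3, which adjusts background by probe sequence, normalizes arrays to one another and summarises each probe set, which compresses dim values toward a floor. No further setting is named in the labels. That the scale is linear was inferred from the range of the values. Intensities were converted to log2 without a pseudocount. The 64 control probe sets were left out, and the 16281 probe sets averaging log2 4 or more were fitted with limma 3.58.1 in R 4.3.3 (trend on intensity, two-sided, Benjamini-Hochberg over all of them, 2 residual and 2.98 prior degrees of freedom). Of all probe sets 34958 had 1 symbol in the platform annotation, 932 several and 9211 none. Groups came from the sample titles. The members and gene lists were chosen with earlier results of these data known. Genes named were all members, Foxp3, the neighbours, the 4 largest differences per list and the 5 profiles nearest to Cd81, with exceptions stated. The script was tested on simulated data. Tables and plots used Python 3.11.15, pandas 2.3.3 and matplotlib 3.10.9.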

Additional observations from a re-analysis of the deposited data

How the results depend on the processing

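Settings covered the filter, the floor, a pseudocount, normalization, the variance trend, the replicate block, probe set choice and each array left out. Cd81 stayed at least 2-fold lower without overlap under all of them, with a difference of -3.94 with a pseudocount of 16 and between -4.72 and -4.32 with an array left out. The count of member probe sets at least 2-fold lower was 1 in every setting with 4 arrays and between 1 and 2 with an array left out, the added ones being Tspan32 or Cd53. The count at least 2-fold higher was 1, or 0 with the filter at log2 6, which removes Cd9, and between 1 and 2 with an array left out; without deleted replicate 1 it was Cd37 in place of Cd9. Over all probe sets limma called 0 in every setting except the filter at log2 6, where it called 20. The descriptive rule counted 746 lower and 1086 higher, 387 and 583 with the filter at log2 6, 439 and 712 with the pseudocount, 425 and 481 with 1 probe set per gene, and 998 to 1415 lower and 1021 to 2257 higher with an array left out. For partners the rule counted 2 lower and 6 higher, 1 lower with the filter at log2 6 or without probe sets ending in _s_at, _x_at or _a_at, 4 higher with the pseudocount, 1 and 3 with 1 probe set per gene, and 2 to 3 lower and 5 to 8 higher with an array left out. For the other tetraspanins the 1 higher (Tspan14) became 0 without wild-type replicate 1 or without those probe sets, and 1 lower (Tspan17) was counted without a filter. With the replicate number as a block the calls stayed at 0. The labels share only a number, and deviations of same-numbered arrays correlated at -0.243. Crossing the pairs, chosen after seeing the data, also gave 0 calls. Low intensities near the floor limit what can be said of dim probe sets.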
